A study of Mus musculus with 4 samples.

Results

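The Hox cluster genes were examined in midbrain of *Lmx1a-dr/dr* and of wild-type embryos at E12.5. All probes were taken whose gene symbol in the annotation of the array is that of a HoxA, HoxB, HoxC or HoxD gene. This gave 50 probes for 36 genes out of 18322 gene symbols on the array. Of the 36 genes, 25 had 1 probe, 9 had 2, *Hoxa13* had 3 and *Hoxa3* had 4. The rule used gene symbols and no measured value, but it was set with earlier results of these data known.

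Hox genes encode homeodomain transcription factors that lie in clusters, and their order along a cluster follows the order of their expression along the body axis. Genes of the lowest paralog numbers are active up to the rhombomeres of the hindbrain, and genes of higher numbers are active in successively more caudal spinal cord, paraxial mesoderm and limb. The midbrain and forebrain normally keep the clusters silent under Polycomb repression, so Hox RNA in a dissected midbrain is a conventional sign of hindbrain, spinal cord or mesodermal tissue. The comparison asks whether Hox RNA was measurable in these samples, and whether it differed with genotype.

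The *Lmx1a-dr/dr* embryos were homozygous for the dr-J point mutation of *Lmx1a*, a LIM homeodomain factor of the floor plate and of developing dopaminergic neurons. The allele came from strain B6C3Fe a/a-Lmx1a dr-J/J and was kept on C57Bl/6J. The mutation is carried in all cells. The labels call the tissue dissected midbrain, and the study describes it as micro-dissected tegmentum of the mesodiencephalon and the retromammillary area. Each of 4 dual-colour arrays (a to d) compared RNA pooled from 5 dr/dr midbrains with RNA of 20 pooled wild-type midbrains. Arrays a and c had the mutant RNA labelled with Cy3, while arrays b and d had it labelled with Cy5. Each dr/dr pool is 1 replicate (n = 4), and the wild-type pool was shared by all arrays and counts as 1 control sample. The tests therefore set the 4 log2 ratios (dr/dr over the wild-type pool) against 0 and leave out the spread between wild-type litters. In such tissue RNA, fewer cells of a type and less RNA per cell cannot be told apart.

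Across all probes that were not controls, Cy5 was the brighter channel, with medians of 3.91 to 4.86 times the local background, against 2.09 to 2.56 times in Cy3. Log2 ratios of 2 arrays with the same dye orientation correlated over all probes at 0.58 and 0.64, and those of opposite orientation at -0.34 to -0.29, so the fit carried a term for the dye. Array a had the highest signal at control spots. Of 604 copies of 1 control sequence, 10.1% in the dr/dr channel and 58.6% in the wild-type channel of array a exceeded their local background by 2 SD, against at most 2.65% in any channel of arrays b to d.

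Most Hox probes gave little signal in either genotype. A gene was represented by its brightest probe, and its signal is given as the spot mean over the mean of the local background, where 1 means no signal. These values show whether a probe was above its own surroundings, and do not rank the RNA levels of different genes. The median over the 36 genes and 4 arrays was 1.66 in dr/dr and 1.72 in wild-type, against 4.96 in dr/dr and 4.98 in wild-type over all 18322 genes. In 20 of 36 genes (55.6%) the spot mean exceeded the local background by more than 2 SD in both genotypes on all 4 arrays, against 86.0% of all genes. At 3 SD there were 10 of 36 genes (27.8%), against 74.9% of all genes. At least 2 times the local background in both genotypes on all arrays was reached by 5 of 36 genes (13.9%), against 65.7% of all genes.

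**Figure D1:**
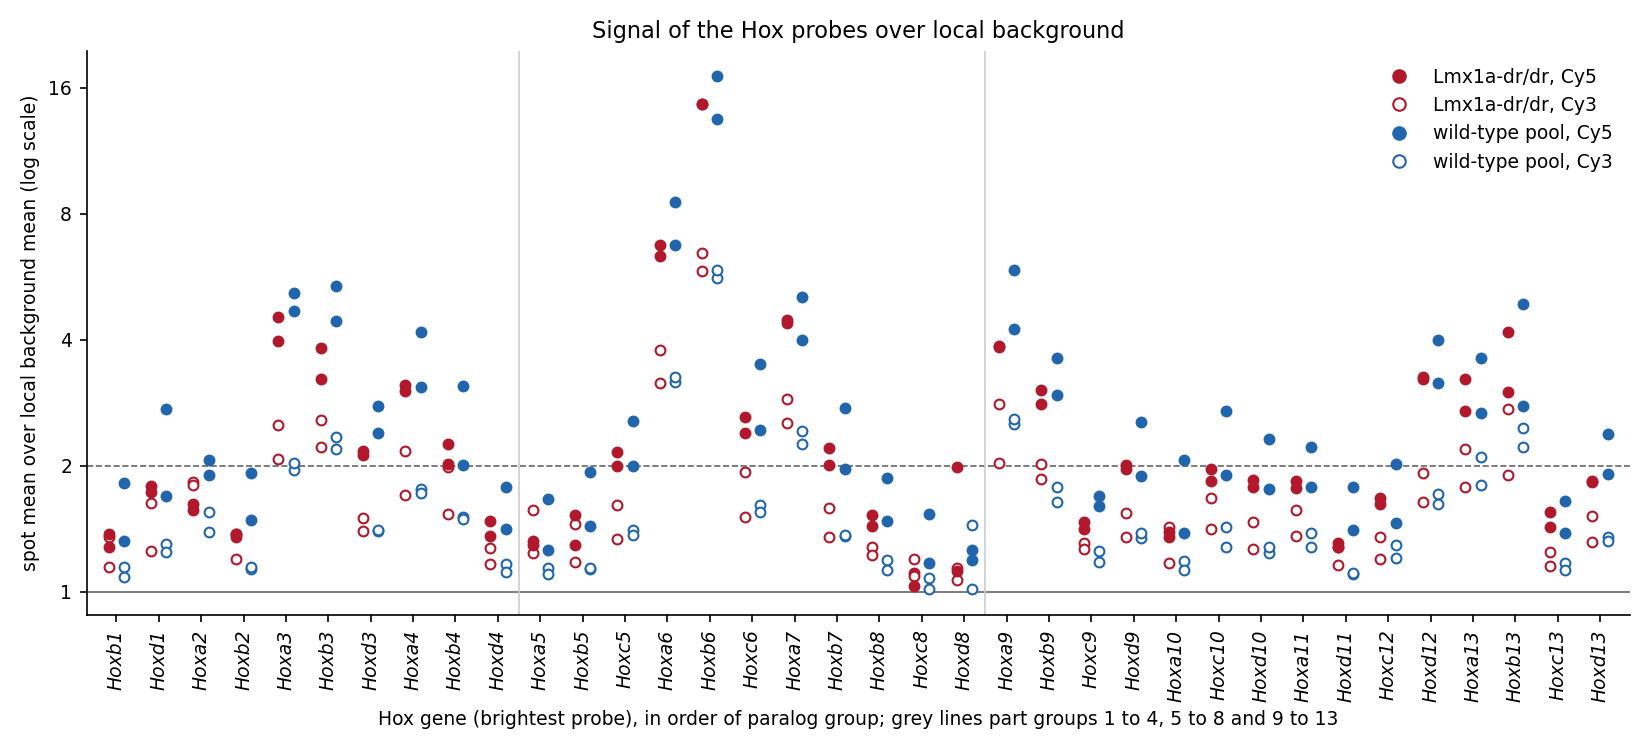
Spot mean over local background mean (log scale) for the brightest probe of each of 36 Hox genes, in *Lmx1a-dr/dr* (red) and the wild-type pool (blue), filled in Cy5 and open in Cy3, 1 point per array. The solid line marks no signal and the dashed line 2 times the background. Only *Hoxb3*, *Hoxa6*, *Hoxb6*, *Hoxa7* and *Hoxa9* have all 8 points above the dashed line, and in these 5 genes every Cy5 point lies above every Cy3 point.

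The number of Hox genes above the local background followed the dye of the channel. At more than 2 SD there were 33, 34, 24 and 32 genes in the dr/dr channel of arrays a, b, c and d, against 35, 24, 32 and 23 in the wild-type channel. On arrays b, c and d, the Cy5 channel held 32 to 34 genes and the Cy3 channel 23 or 24, whichever genotype it carried. At 2 times the background, the dr/dr channels held 10, 15, 6 and 17 genes, against 25, 7, 14 and 7 in the wild-type channels. The Cy5 channel was again the higher one on each array, so these counts give no order of the genotypes.

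By position along the axis, the 2-fold rule was passed by 1 of 10 genes of paralog groups 1 to 4, by 3 of 11 of groups 5 to 8 and by 1 of 15 of groups 9 to 13. The 2 SD rule was passed by 6 of 10, 6 of 11 and 8 of 15 genes of these groups. By cluster, the 2-fold rule was passed by 3 of 10 HoxA genes, 2 of 10 HoxB genes, 0 of 7 HoxC genes and 0 of 9 HoxD genes. At 2 SD the counts were 7 of 10, 6 of 10, 3 of 7 and 4 of 9. In the order of the RefSeq table (GRCm38.p6), *Hoxa6*, *Hoxa7* and *Hoxa9* are neighbours among the measured HoxA genes, with *Hoxa5* on one side and *Hoxa10* on the other.

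The bases upstream of the start sites of these 3 HoxA genes, which passed the 2-fold rule, and of *Hoxa5*, the neighbour near background, are shown beside the values. Signal in the cluster was not confined to these 3, since 6 of 10 HoxA genes passed at 3 SD. They are the 150 bases before the annotated start in RefSeq (GRCm38.p6), written 5′ to 3′ on the minus strand, with each CG in capitals. Probe sequences were not used here.
Hoxa9, chr6:52227371-52227520, minus strand: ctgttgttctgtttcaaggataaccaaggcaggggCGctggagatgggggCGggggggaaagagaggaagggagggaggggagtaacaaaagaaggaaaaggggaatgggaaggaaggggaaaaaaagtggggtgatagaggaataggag
Hoxa7, chr6:52218574-52218723, minus strand: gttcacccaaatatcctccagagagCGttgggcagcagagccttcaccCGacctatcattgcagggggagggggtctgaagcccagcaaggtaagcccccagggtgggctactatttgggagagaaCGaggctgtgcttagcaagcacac
Hoxa6, chr6:52208673-52208822, minus strand: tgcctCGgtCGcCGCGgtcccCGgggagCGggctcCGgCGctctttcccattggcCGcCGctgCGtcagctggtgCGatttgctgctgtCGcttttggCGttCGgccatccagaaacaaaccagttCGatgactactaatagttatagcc
Hoxa5, chr6:52204588-52204737, minus strand: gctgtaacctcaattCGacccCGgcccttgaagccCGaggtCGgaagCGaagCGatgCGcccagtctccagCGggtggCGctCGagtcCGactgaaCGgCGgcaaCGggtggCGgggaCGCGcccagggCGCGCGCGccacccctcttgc
The printed stretches hold 2 CG in *Hoxa9*, 3 in *Hoxa7*, 16 in *Hoxa6* and 21 in *Hoxa5*. The 3 genes past the 2-fold rule thus differ from each other in this feature. Promoter windows of 300 bases (250 before and 50 after the start) were found for 21 of the 36 genes, in 23 windows. Their median count of CG was 15 (range 4 to 45), against 7 over all 32851 windows in the table. The motif TGATNNAT, which Hox proteins bind together with Pbx, was found on either strand in 4 of the 23 windows and in 8.85% of all windows. None of the 4 windows printed here in part held it.

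*Hoxb3* is a gene of the caudal hindbrain. Its brightest probe measured 2.57, 3.83, 2.22 and 3.23 times the background in dr/dr on arrays a, b, c and d, against 5.39, 2.34, 4.44 and 2.20 times in wild-type. The log2 ratios after normalization were -0.13, -0.36, 0.13 and -0.41, with a mean of -0.19 (95% interval -0.33 to -0.06). It was lower in dr/dr on 3 of 4 arrays and did not pass the test (limma, adjusted p = 0.183), which no probe on the array passed. When the median pixel of each spot replaced the mean, it passed (limma adjusted p = 0.0432), as did 7.41% of all probes. The other *Hoxb3* probe had a mean of 0.15 and was above 0 on all 4 arrays, so the probes of this gene differed in sign.

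*Hoxa6*, *Hoxb6* and *Hoxa7* belong to paralog groups that are active in the cervical and thoracic spinal cord and in the matching paraxial mesoderm. *Hoxb6* measured 6.44, 14.7, 5.84 and 14.7 times the background in dr/dr on arrays a to d, against 17.1, 5.63, 13.5 and 5.89 times in wild-type. Both genotypes thus lay at 13.5 to 17.1 times in Cy5 and at 5.63 to 6.44 times in Cy3, and overlapped in each dye. The log2 ratios were -0.50, 0.11, -0.18 and 0.18, with a mean of -0.10 (95% interval -0.26 to 0.06, limma adjusted p = 0.508), below 0 on arrays a and c and above 0 on arrays b and d. The other *Hoxb6* probe was dimmer, at 1.54 to 2.70 times in dr/dr and 1.54 to 3.36 times in wild-type, with a mean log2 ratio of -0.03.

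*Hoxa6* measured 3.78, 6.73, 3.16 and 6.34 times the background in dr/dr, against 8.56, 3.18, 6.74 and 3.26 times in wild-type. Its log2 ratios were 0.02, 0.29, -0.04 and -0.14 (mean 0.03, 95% interval -0.18 to 0.24, limma adjusted p = 0.904), so the arrays did not share a direction. *Hoxa7* measured 2.88, 4.38, 2.53 and 4.46 times in dr/dr, against 5.06, 2.26, 3.99 and 2.43 times in wild-type. Its log2 ratios were 0.15, -0.06, 0.32 and 0.02 (mean 0.11, 95% interval -0.01 to 0.22, limma adjusted p = 0.312), above 0 on 3 of 4 arrays and without passing the test.

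*Hoxa9* belongs to a paralog group of the thoracic and lumbar cord, and is also active in blood progenitors. It measured 2.80, 3.85, 2.04 and 3.87 times the background in dr/dr, against 5.86, 2.51, 4.25 and 2.59 times in wild-type. The log2 ratios were 0.00, -0.29, -0.15 and -0.33 (mean -0.19, 95% interval -0.29 to -0.09). Arrays b, c and d lay below 0 and array a at 0. The gene did not pass the test (limma, adjusted p = 0.134), which no probe on the array passed. With the median pixel of each spot it passed (limma adjusted p = 0.0217), as did 7.41% of all probes.

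Over all Hox probes, no difference between dr/dr and wild-type passed a test. Limma called 0 of 50 Hox probes at an adjusted p under 0.05, and 0% of all probes. The permutation test of the study's methods also called 0 of 50 Hox probes at a family-wise p under 0.05, against 0.274% of all probes. At an unadjusted p under 0.05, 2 of 50 Hox probes were lower in dr/dr (*Hoxb3* and *Hoxa9*), against 8.24% of all probes, and 1 of 50 was higher (*Hoxa5*), against 8.85% of all probes. Among the 20249 probes on the array that missed the 2-fold rule, 2.99% were lower and 4.18% higher in dr/dr at this level. Of the 45 Hox probes that missed it, 0 were lower and 1 was higher, and the 2 that were lower had passed it. When the median pixel of each spot was used instead of the mean, limma called 2 of 50 Hox probes, against 7.41% of all probes. They were *Hoxb3* (log2 ratio -0.19, adjusted p = 0.0432) and *Hoxa9* (-0.23, adjusted p = 0.0217), both lower in dr/dr.

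The mean log2 ratios of the 36 genes lay between -0.19 (*Hoxb3*) and 0.16 (*Hoxa5*), and 32 of them within 0.1 of 0. Their median was -0.0025, against -0.0043 over all genes. By paralog group the medians were -0.0034 for groups 1 to 4, -0.0055 for groups 5 to 8 and -0.00063 for groups 9 to 13. By cluster they were 0.016 for HoxA, -0.0034 for HoxB, -0.019 for HoxC and 0.0013 for HoxD. Means below 0 were found for 20 genes and above 0 for 16.

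No brightest Hox probe kept 1 sign on all 4 arrays. Among all 50 probes, 0 were lower in dr/dr on all arrays, against 8.02% of all probes, and 3 were higher on all arrays, against 8.06% of all probes. These 3 were further probes of *Hoxb3*, *Hoxb8* and *Hoxd13*, with means of 0.15, 0.05 and 0.05. The brightest probes of the same genes had means of -0.19, -0.01 and -0.03. Of the 11 genes with more than 1 probe, 7 had probes whose means differed in sign.

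**Figure D2:**
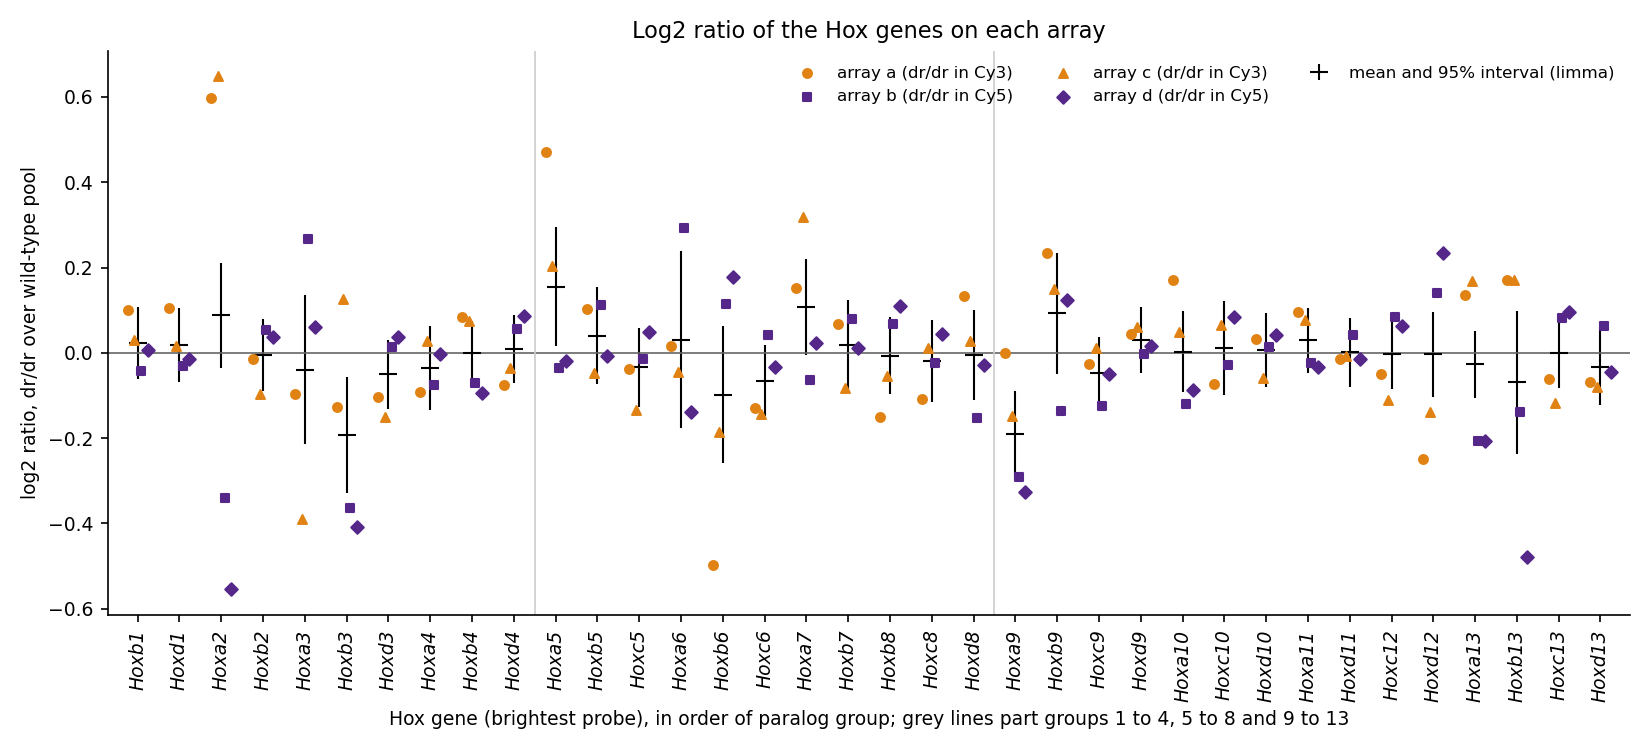
Log2 ratio per array, with dr/dr over the wild-type pool (y axis), for the brightest probe of each of 36 Hox genes on arrays a and c (orange, dr/dr in Cy3) and b and d (purple, dr/dr in Cy5), with the limma mean and its 95% interval in black. The means lie between -0.19 and 0.16, and for *Hoxa2* the orange points lie at 0.60 and 0.65 and the purple ones at -0.34 and -0.55.

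The 95% intervals of all 36 genes lay between -0.33 and 0.30. These intervals are from the moderated fit, with the dye effect taken out. No background had been subtracted, so the ratio of a dim probe is drawn towards 0. After a background correction without offset (normexp, chosen after the data were seen), the means lay between -0.32 (*Hoxa9*) and 0.50 (*Hoxa5*), and the intervals between -0.48 and 0.67. Over the 5 genes with at least 2 times the background, the means then lay between -0.32 and 0.15. Differences of a dim Hox gene smaller than these intervals were not detectable on 4 arrays.

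The dye term was larger in size than the genotype difference in 40 of the 50 Hox probes. Its median size was 0.073 on the log2 scale, against 0.026 for the genotype difference. Over all probes the same held for 25216 probes (61.2%), with median sizes of 0.065 and 0.045. *Hoxa2*, which patterns the second rhombomere and the branchial arches, was named after its values were seen. Its log2 ratios were 0.60, -0.34, 0.65 and -0.55 on arrays a to d, averaging 0.62 where dr/dr carried Cy3 and -0.45 where it carried Cy5. The dye term was 0.54, and the genotype difference 0.09 (95% interval -0.04 to 0.21, limma adjusted p = 0.437). Its signal was 1.57 to 1.83 times the background in dr/dr and 1.39 to 2.07 times in wild-type.

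**Figure D3:**
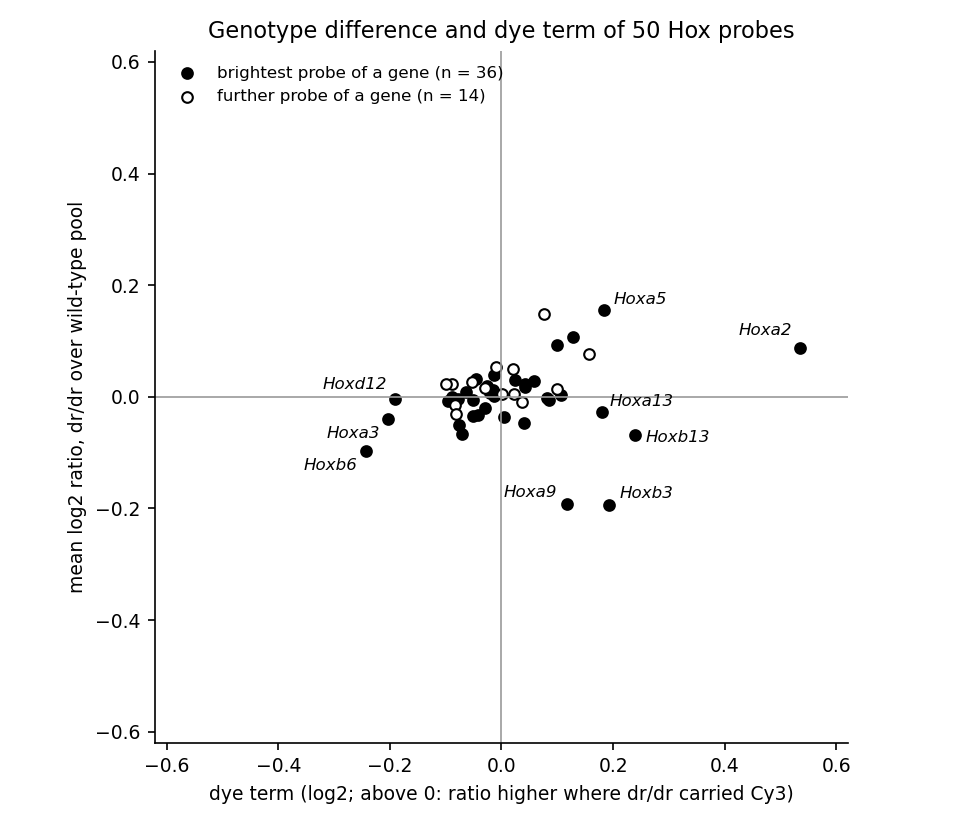
Mean log2 ratio, with dr/dr on top (y axis), against the dye term (x axis, log2, above 0 where the ratio was higher with dr/dr in Cy3) for 50 Hox probes, filled for the brightest probe of a gene and open for further probes. *Hoxa2* lies farthest out on the dye axis at 0.54, and no probe lies beyond -0.19 or 0.16 on the genotype axis.

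*Hoxa5*, a gene of the cervical cord and lung mesenchyme, was also named after its values were seen. It measured 1.56, 1.32, 1.24 and 1.29 times the background in dr/dr, against 1.67, 1.14, 1.26 and 1.11 times in wild-type. It exceeded the background by 2 SD on 4 arrays in dr/dr and on 1 array, array a, in wild-type. In that wild-type channel 58.6% of the copies of the control sequence did so too. The wild-type channels of arrays b and d carried Cy3, the dimmer dye, and that of array c carried Cy5. These counts therefore give no order of the genotypes. The log2 ratios were 0.47, -0.04, 0.20 and -0.02 (mean 0.16, 95% interval 0.01 to 0.30, limma adjusted p = 0.256). Both positive ratios came from arrays a and c, where dr/dr carried Cy3, and those of arrays b and d were near 0.

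A few genes lay close to the 2-fold rule without meeting it in all 8 channels. *Hoxa3*, of the caudal hindbrain and pharyngeal arches, measured 2.08 to 4.54 times the background in dr/dr and 1.96 to 5.19 times in wild-type with its brightest probe. Its other 3 probes did not exceed 1.49 times in dr/dr or 1.80 times in wild-type. *Hoxb13*, of the tail bud and hindgut, measured 1.90 to 4.17 times in dr/dr and 2.22 to 4.86 times in wild-type. *Hoxa13*, of the distal limb and genital tubercle, measured 1.78 to 3.23 times in dr/dr and 1.80 to 3.62 times in wild-type with the brightest of its 3 probes. Their mean log2 ratios were -0.04, -0.07 and -0.03.

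At the other end, *Hoxc8*, of the brachial and thoracic cord, exceeded its background by 2 SD on 0 arrays in dr/dr and on 1 array, array a, in wild-type. It measured 1.03 to 1.20 times the background in dr/dr and 1.01 to 1.54 times in wild-type, with a mean log2 ratio of -0.02 (95% interval -0.12 to 0.08). One dim probe of *Hoxa13* showed the same pattern of 0 arrays in dr/dr and 1 array in wild-type. The further probe of *Hoxd3* stood out on array a alone, at 2.17 times in dr/dr and 3.43 times in wild-type, and did not exceed 1.09 times in either genotype on arrays b to d. *Hoxd8* exceeded its background by 2 SD only on array b, at 1.98 times in dr/dr and 1.44 times in wild-type.

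Markers of the regions around the midbrain were measured beside the Hox genes. Of 17 midbrain and forebrain genes, 13 reached 2 times the background in both genotypes on all arrays. *Otx2*, the homeobox gene that marks forebrain and midbrain, measured 26.2 to 61.9 times in dr/dr and 22.01 to 58.7 times in wild-type. *En1*, of the midbrain and anterior hindbrain, measured 1.67 to 2.74 times in dr/dr and 2.04 to 4.36 times in wild-type (log2 ratio -0.48 ± 0.06 SE, limma adjusted p = 0.102, family-wise permutation p = 0.133). *Pax3*, of the dorsal neural tube, had a log2 ratio of 0.54 ± 0.13 and *Otx2* of 0.20 ± 0.04 (SE, n = 4 each), both above 0 on all 4 arrays. Their limma adjusted p-values were 0.165 and 0.132, so none of these 3 genes passed the test. Of 18 hindbrain and rhombomere genes, 8 reached 2 times the background. Among them was *Gbx2*, listed here for the anterior hindbrain, at 9.03 to 21.1 times in dr/dr and 9.38 to 29.0 times in wild-type. Which tissue in the dissected samples gave this signal was not tested. *Egr2*, which marks the third and the fifth rhombomere, did not reach 2 times on all arrays. It measured 1.73 to 3.13 times in dr/dr and 1.76 to 3.95 times in wild-type. *Tlx3*, of the same list, measured 1.09 to 1.40 times in dr/dr and 1.05 to 1.63 times in wild-type.

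Of 13 genes of the spinal cord, its motor neurons and the tail bud, 3 reached 2 times the background, *Lhx3*, *Isl1* and *Foxp1*, which are also active in the brain. By the 2 SD rule 9 of the 13 passed, with *Mnx1* among them. *Mnx1*, the homeobox gene of somatic motor neurons of the cord, measured 1.51 to 1.98 times in dr/dr and 1.42 to 2.51 times in wild-type. *Cdx1*, *Cdx2* and *Cdx4*, the caudal homeobox genes that activate posterior Hox genes, did not exceed their background by 2 SD in both genotypes on all arrays, with 1.08 to 1.43 times in dr/dr and 0.986 to 1.96 times in wild-type. *Nkx1-2*, a homeobox gene of the tail bud, measured 5.44, 8.52, 3.73 and 5.23 times in dr/dr on arrays a to d, against 11.5, 3.67, 8.16 and 1.97 times in wild-type. It missed the 2-fold rule only in the wild-type channel of array d, and did not exceed its background by 2 SD in all 8 channels. Its mean log2 ratio was -0.26 ± 0.21 (SE, n = 4, limma adjusted p = 0.619). Of 19 genes of paraxial mesoderm, cartilage and mesenchyme, 7 reached 2 times the background. Of 12 blood genes 9 did, of 7 endothelial genes 5, and of 7 neural crest and sensory ganglion genes 5. What part such tissues had in the Hox signal was not tested.

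**Figure D4:**
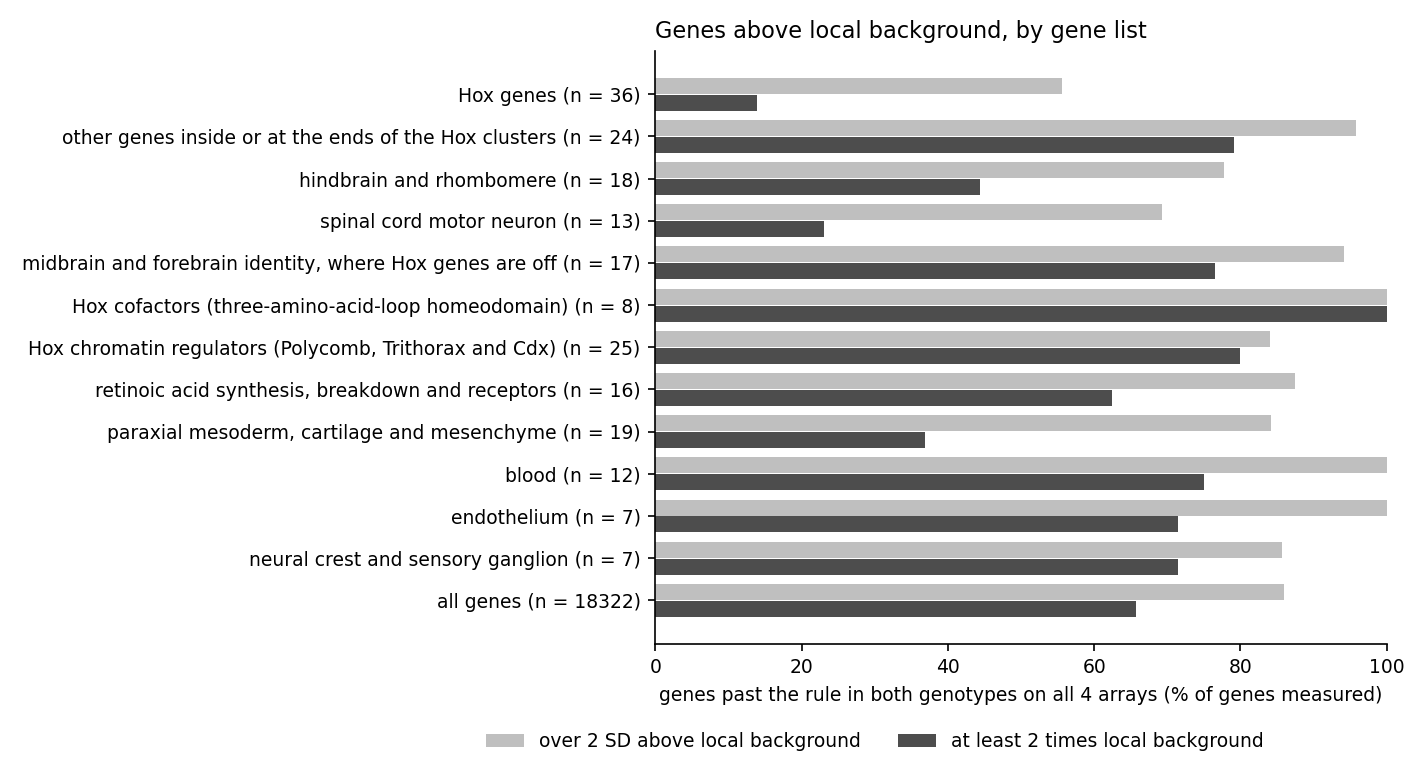
Share of the measured genes of each list (%) whose brightest probe exceeded its local background by 2 SD (light bars) or reached 2 times the background (dark bars) in both genotypes on all 4 arrays. The Hox genes, at 55.6% and 13.9%, are the lowest of the lists shown, and all 18322 genes, at 86.0% and 65.7%, are at the bottom.

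A list of other genes in and around the Hox clusters was mostly above background. Of its 24 measured genes, 19 reached 2 times the background. The distance of each from a cluster was not measured, so this count does not describe the inside of the clusters. *Evx1* did not reach 2 times on all arrays, with 1.52 to 2.11 times in dr/dr and 1.51 to 2.74 times in wild-type. *Evx2*, a homeobox gene next to *Hoxd13*, measured 12.2 to 31.1 times in dr/dr and 11.7 to 33.9 times in wild-type. *Hoxb3os*, an antisense transcript of *Hoxb3*, measured 1.16 to 1.32 times in dr/dr and 1.02 to 1.57 times in wild-type. The median log2 ratio of the 24 genes was 0.013, and 0 were called by the permutation test.

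Partners and regulators of Hox genes were measured in both genotypes. All 8 measured cofactors of the three-amino-acid-loop homeodomain class, which bind DNA together with Hox proteins, reached 2 times the background, and 1 was called by the permutation test. This was *Meis3*, at 3.84, 6.77, 3.27 and 6.45 times the background in dr/dr, against 10.7, 3.58, 8.44 and 4.10 times in wild-type. Its log2 ratios of -0.39, -0.45, -0.34 and -0.43 lay below 0 on all 4 arrays and in both dye orientations. The mean was -0.40 ± 0.03 (SE, n = 4), with a family-wise permutation p of 0.005 and a limma adjusted p of 0.0959. *Pbx2* was next at -0.35 ± 0.04 (SE, family-wise permutation p = 0.1002), without passing.

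Of 22 measured Polycomb and Trithorax regulators of the clusters, 20 reached 2 times the background, *Pcgf2* and *Phc3* did not, and 0 were called. *Ezh2*, the methyltransferase of Polycomb complex 2, had a log2 ratio of 0.10 ± 0.04, and *Ring1*, a ubiquitin ligase of Polycomb complex 1, of -0.47 ± 0.06 (SE, n = 4 each). Their limma adjusted p-values were 0.294 and 0.102. Retinoic acid is a signal that sets the anterior limits of 3′ Hox genes. Of 16 genes of its metabolism and response, 10 reached 2 times the background and 0 were called. *Cyp26b1*, which breaks retinoic acid down, had a log2 ratio of 0.01 ± 0.11 (SE, n = 4). The permutation test called 0 genes of the hindbrain, spinal cord, midbrain and forebrain, mesoderm, blood and endothelium lists, and 1 gene of the neural crest and sensory ganglion list. This was *Pou4f1*, a homeobox gene of sensory ganglia that is also active in midbrain neurons. Its called probe was higher in dr/dr on all 4 arrays (log2 ratios 0.38, 0.52, 0.44 and 0.76, mean 0.53 ± 0.05 SE, family-wise permutation p = 0.0086, limma adjusted p = 0.0967), and its other probe had a mean of -0.21 and was not called.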

How the data were processed

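RNA from pools of 5 *Lmx1a-dr/dr* midbrains and from 1 pool of 20 wild-type midbrains was hybridized on 4 dual-colour Agilent arrays with dye swap. The authors deposited ImaGene spot and local background intensity per channel, neither background-subtracted nor normalized, and a log2 table normalized with print-tip loess from the mean signal of each spot. All columns of that deposited log2 table have dr/dr on top (r = 0.96 to 0.98 with the ratios computed here).

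Log2 ratios were computed from mean spot intensity with 1 loess curve per array (span 0.3, 4 iterations, control spots without weight) and without background subtraction. The deposited grid has 1 block, so no print-tip curves were made. Limma 3.58.1 (R 4.3.3) was fitted to all probes other than controls (45220 spots, 4046 controls) with a dye term, without a filter, and adjusted by Benjamini-Hochberg. The permutation test of the methods (F2 statistic, 5000 shuffles of residuals, family-wise p under 0.05) and all counts were run in Python 3.11.15 with numpy 2.4.6 and pandas 2.3.3. Both tests were checked on simulated data. Symbols came from the array's annotation (34186 probes with a symbol, 6988 without). The brightest probe, by mean log2 intensity over all channels, stands for a gene.

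Nothing says whether the 4 dr/dr pools came from separate litters, so p-values measure the spread between pools, and the number of arrays limits the precision. Members and gene lists were chosen with earlier results of these data known. Named with values per array were the Hox genes at 2 times the local background in both genotypes on all arrays; the further Hox genes were to be named if called or among the 5 lowest and 5 highest means with 1 sign on all arrays, of which there were none among brightest probes. Other Hox genes were named after their values were seen, and so were members of other lists that were not called. Alternatives were other background corrections, median centring, no dye term, an intensity trend, a filter on dim probes, the deposited table, the median spot signal, other detection rules and each array left out.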

Additional observations from a re-analysis of the deposited data

Results flagged for a closer look

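One log2 ratio of the 36 brightest Hox probes stood apart from the other 3 arrays by more than the critical value for 4 samples (gap over range 0.862). It was *Hoxd11*, a gene of the limb and caudal trunk, whose log2 ratio on array b was 0.042, against -0.015 on array a, -0.007 on array c and -0.015 on array d. All 4 ratios were close to 0, and the mean was 0.00 (95% interval -0.08 to 0.08). Chance flags about 1 in 20 groups of samples.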

How the results depend on the processing

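The count of Hox probes called by limma stayed at 0 under normexp background correction with either offset, median centring, no dye term, the intensity trend, the filter on dim probes (6 Hox probes left), the authors' table, each array left out and the permutation test, and was 2 with the median spot signal (*Hoxb3* at -0.19 and *Hoxa9* at -0.23) and 3 at an unadjusted p under 0.05. The median log2 ratio of the Hox genes was 0.0088 with normexp and offset 0, -0.028 with median centring and -0.069 over the 6 genes left by the filter on dim probes, and lay between -0.010 and 0.0062 with 1 array left out. Hox genes with 1 sign on all 4 arrays, 0 in the main setting, numbered 4 with normexp at either offset, 2 with median centring, 3 in the authors' table and 3 with the median spot signal, and 1 to 7 of them kept 1 sign over 3 arrays. Without array b the count was 7 and without array c it was 5. A sign is shared more easily over 3 arrays than over 4. The share of all probes with 1 sign was not counted in these alternative settings, so their counts are not read as a result about Hox genes. Hox genes above background in both genotypes, 20 by the 2 SD rule, numbered 10 at 3 SD, 10 at 3 SD without array a, 5 at 2 times the background, 19 with the median spot signal, 26 over the 95th percentile of a control sequence and 20 to 22 with 1 array left out. Of all genes, 85.4% were above background with the median spot signal and 91.3% over the 95th percentile of the control sequence. The rule with negative controls was not run, because no spot is named as one in the files used. The direction of *Hoxa6* turned with the median spot signal (-0.0021) and without array b (-0.077), and the value was 0.14 without array d. For the 5 genes with values per array, 56 of 60 alternative values kept direction and side of the threshold. The cause of these shifts was not tested. No paired analysis was possible because each array already compares dr/dr with wild-type. Probes near their background give ratios drawn towards 0, which limits what can be seen for most Hox genes.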
